A study of Mus musculus with 18 samples.

Results

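The genes described here, 9 in number, build cell junctions in mouse back skin. They are 3 claudins (Cldn1, Cldn4 and Cldn23), occludin (Ocln), the scaffold gene Tjp1 and 4 connexins (Gjb2, Gjb5, Gjb6 and Gja1), out of 18193 genes on the array. The genes were chosen by name, with earlier results of these data known. Every probe set annotated with exactly one of these symbols was taken, which gave 18 of the 45037 probe sets tested. Of the 18, 15 ranged by at least 0.01 log2 over the arrays, as did 11946 of all probe sets. The other 3 are the single probe set of Cldn23, 1 of 4 of Cldn1 (1438850_at) and 1 of 2 of Ocln (1448873_at). They hold practically the same value on every array and give no information, so nothing can be said of Cldn23. All mice were HR-1 males, a hairless albino strain, aged 6 weeks by the labels. NT mice (n = 6 arrays) were not stripped. TS mice (n = 6) had the barrier of their left back disrupted with cellophane tape in 3 sessions a week over 4 weeks, each carried on until water loss through the skin stood at 70 to 100 g/m2/h. WB mice (n = 6) were stripped likewise and received an oral extract of winged bean, dosed on 5 days a week over 5 weeks with 200 mg/kg/day, suspended in 0.3% carboxymethylcellulose. The labels name no oral treatment for NT and TS mice, so extract and vehicle cannot be told apart. The labels call the arrays of a group biological replicates, and p-values measure the spread between these arrays.

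Tight junctions seal the space between neighbouring cells, and in epidermis they lie in the granular layer beneath the stratum corneum. Claudins and occludin are the membrane proteins of the seal, and the scaffold protein ZO-1, the product of Tjp1, ties them to the actin cytoskeleton. Connexins form gap junctions, channels that pass ions and small molecules directly from cell to cell. Epidermis uses several connexins in different layers. Human epidermis is known to raise the products of Gjb2 and Gjb6 in wounds and in psoriasis.

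Values are on the deposited scale, read as log2, with the base not stated in the sources used here, so that folds assume it. A ± marks the SD of a group (6 arrays). The array's control probe sets for the 3' and 5' ends of beta-actin differed, 3' minus 5', by -0.51 ± 0.10 in NT, 0.16 ± 0.07 in TS and 5.69 ± 0.25 in WB (each pair of groups compared by a two-sided exact permutation test, p = 0.00216, the smallest that 6 against 6 arrays allow, adjusted 0.00278). This difference shows how far labelled RNA reaches from the 3' end. The keratinocyte marker means lay above the array medians of 6.90 to 6.94 on every array, at 9.64 to 11.26 for 7 basal markers and 11.01 to 12.57 for 10 suprabasal ones. One array, NT 5, also carried liver transcripts, its liver marker mean of 14.73 standing against a TS mean of 7.02 ± 0.05, and without it only the call on Gja1 probe set 1438945_x_at was lost among the members in TS against NT (adjusted p = 0.0588 in limma).

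TS was set against NT to see the effect of repeated stripping on junction transcripts. Stripped skin carried more transcript of the epidermal connexins Gjb2 and Gjb6, with differences of 2.69 (SE 0.44) and 2.91 (SE 0.35), the size of the second being uncertain because Gjb6 lay below the array median in NT, and a little more of Gjb5, Gja1 and Tjp1. Among the genes of the seal, Cldn1 rose on 1 of its 3 varying probe sets, and Cldn4 and Ocln passed in neither direction. Taking for each gene its brightest probe set, 5 of the 7 members that vary there rose and none fell, while 40.5% of all 6842 varying genes passed at an adjusted p under 0.05 (limma, Benjamini-Hochberg over all probe sets), 19.4% higher and 21.1% lower. Over probe sets 10 of 15 rose, 5 of them belonging to Gja1, and none fell. Of all varying probe sets 38.2% passed, 18.8% higher and 19.4% lower. The members were chosen with earlier results of these data known, so these shares are given as description only. The groups did not overlap on 3 of the 15, against 24.9% of varying probe sets. Beside these results stands the actin 3' minus 5' difference of -0.51 in NT and 0.16 in TS, whose part in them was not tested.

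Gjb2 encodes a connexin whose human mutations cause deafness, some with thickened skin. Its lowest, median and highest values were 8.21, 8.75 and 9.14 in NT and 9.38, 11.58 and 12.81 in TS, so that every stripped array lay above every unstripped one. The mean rose from 8.69 ± 0.38 to 11.38 ± 1.18, a 6.46-fold difference (limma, adjusted p = 0.000581). The spread among stripped mice was itself wide. TS 4 was lowest at 9.38, close to the NT range, and TS 5 highest. Without TS 4 the difference was 3.09 (adjusted p = 3.1e-05).

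Gjb6, whose human mutations cause a hidrotic ectodermal dysplasia, ran from 6.38 through a median of 6.51 to 6.83 in NT, and from 8.06 through 9.60 to 10.47 in TS. These ranges are also well apart. The mean went from 6.57 ± 0.19 to 9.48 ± 0.86 (limma, adjusted p = 4.5e-05). The NT level lies below the array median of 6.94, where background may hold values up. The size of the difference is therefore uncertain here and against WB, and no fold is given.

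Gjb2 and Gjb6 are next to each other on chromosome 14 in the mouse RefSeq annotation, with Gja3 on the far side of Gjb2 (its probe set did not vary). Genes were compared over the 12 NT and TS arrays after subtracting each gene's own mean. Among the 6842 varying genes, the one nearest to Gjb2 was Gjb6, and the one nearest to Gjb6 was Gjb2. The pair differed by 0.215 log2 per array on average. This measure is small only for genes whose difference between TS and NT is of like size (2.69 for Gjb2, 2.91 for Gjb6). On TS arrays both genes were lowest on TS 4, next on TS 1 and highest on TS 2 and TS 5. The other genes near Gjb2 and Gjb6 by this measure were Lce3c and Lce3a, late cornified envelope genes, and Aqp3, the water and glycerol channel of keratinocytes. Lce3c came next for both, at 0.385 from Gjb2 and 0.264 from Gjb6, and went from 7.45 ± 0.06 in NT to 10.53 ± 1.21 in TS.

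**Figure D1:**
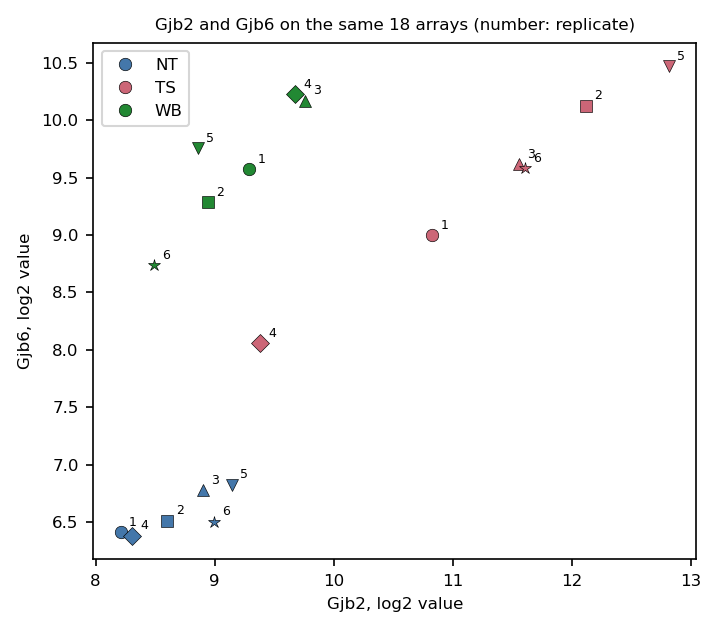
Log2 value of Gjb6 (vertical axis) against that of Gjb2 (horizontal axis) on each of the 18 arrays, coloured by group and numbered by replicate. NT arrays lie at the lower left, TS arrays run up a diagonal from TS 4 to TS 5, and WB arrays have Gjb6 within the TS range and Gjb2 between 8.49 and 9.76.

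The sequences just before the RefSeq starts of Gjb2 and Gjb6 are shown because the transcripts of these neighbours rose together, and those of Gja1 and Cldn4 because a script found AP-1 letters in them. They are from RefSeq, build GRCm38.p6, each printed 5' to 3' on the gene's strand. The Gjb2 sequence covers chr14:57104703-57104952 (minus strand), that of Gjb6 chr14:57133612-57133861 (minus), that of Gja1 chr10:56377050-56377299 (plus) and that of Cldn4 chr5:134946935-134947184 (minus). Capitals mark matches to the AP-1 letters TGANTCA, the grainyhead-like letters AACNGGTT or the TATA letters TATAAA, searched on both strands.
Gjb2: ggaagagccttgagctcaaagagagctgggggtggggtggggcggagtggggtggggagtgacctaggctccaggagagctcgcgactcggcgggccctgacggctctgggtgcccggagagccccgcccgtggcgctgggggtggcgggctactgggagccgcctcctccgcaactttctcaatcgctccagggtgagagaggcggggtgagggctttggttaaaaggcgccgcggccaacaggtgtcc
Gjb6: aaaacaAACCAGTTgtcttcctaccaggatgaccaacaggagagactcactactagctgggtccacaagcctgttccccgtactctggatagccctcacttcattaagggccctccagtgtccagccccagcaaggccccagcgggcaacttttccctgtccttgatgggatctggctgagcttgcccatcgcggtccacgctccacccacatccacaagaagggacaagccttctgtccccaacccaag
Gja1: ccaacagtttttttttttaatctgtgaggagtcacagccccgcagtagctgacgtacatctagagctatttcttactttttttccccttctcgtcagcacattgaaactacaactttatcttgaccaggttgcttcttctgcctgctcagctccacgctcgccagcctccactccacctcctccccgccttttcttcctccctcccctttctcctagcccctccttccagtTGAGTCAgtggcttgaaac
Cldn4: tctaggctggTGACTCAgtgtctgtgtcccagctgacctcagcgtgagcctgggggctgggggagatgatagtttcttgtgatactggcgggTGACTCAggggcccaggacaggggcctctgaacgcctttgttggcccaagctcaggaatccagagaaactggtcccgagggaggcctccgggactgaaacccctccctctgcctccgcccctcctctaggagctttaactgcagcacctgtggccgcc
None of these letters occurs in the Gjb2 window, and Gjb6 has a grainyhead-like match on the reverse strand. Gja1 has an AP-1 match 19 to 13 bases before its start and Cldn4 has 2 such matches. Of the other members with a promoter entry, Gjb5 has a TATA match 243 to 238 bases before its start, and Cldn1, Ocln and Tjp1 have none. Of all 32851 promoter windows of this length, 6.75% hold the AP-1 letters, 1.79% the grainyhead-like letters and 12.4% the TATA letters. A match is a description of letters and says nothing of binding.

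Gjb5, a connexin gene of stratified epithelia, ran from 8.54 through a median of 8.90 to 9.01 in NT and from 8.78 through 9.60 to 10.08 in TS. All stripped arrays but TS 5 lay above the NT range, and TS 5 lay inside it. The mean rose from 8.83 ± 0.20 to 9.54 ± 0.43 (1.63-fold, limma, adjusted p = 0.00913). The genes nearest to it in pattern were Alox12b, a lipoxygenase of barrier lipid synthesis, at 0.0942, Arhgap24 at 0.114 and the serpin Serpinb5 at 0.117.

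Gja1, which encodes the most widespread connexin, has 6 probe sets, all varying. On the brightest (1437992_x_at) the lowest, median and highest values were 11.88, 11.95 and 12.01 in NT and 11.85, 12.40 and 12.47 in TS. All TS arrays but TS 4 lay above the NT range. The difference was 0.37 (SE 0.10, limma, adjusted p = 0.0136), and 0.47 without TS 4 (adjusted p = 0.00016). The 6 probe sets gave differences of 0.21 to 0.37, and 5 passed. The exception, 1415801_at, differed by 0.34 (SE 0.12, adjusted p = 0.0778), and passed among varying probe sets alone (0.0259), with array weights (0.0232) and without TS 4 (0.037). On 1438945_x_at the call was lost when any of 10 single arrays was left out (adjusted p 0.0530 to 0.0813). It was also lost in a limma fit that left out the WB arrays (adjusted p = 0.0522). These probe sets share a transcript and are no replicates of each other. The genes nearest to Gja1 in pattern were Wdr12 at 0.0666, Nip7 at 0.0698 and Ctu2 at 0.0714. Wdr12 and Nip7 act in ribosome assembly and Ctu2 in tRNA modification.

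Tjp1, which encodes ZO-1, ranged from 9.61 to 9.81 in NT with a median of 9.71, and from 9.87 to 10.12 in TS with a median of 9.95. The groups did not overlap, although the difference was only 0.27 (SE 0.06, 1.2-fold, limma, adjusted p = 0.00637). The RNA helicase gene Ddx3x was nearest to it in pattern, at 0.0448.

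Cldn1 encodes claudin-1, without which the epidermal barrier of mice fails. Its brightest probe set, 1437932_a_at, stood at 10.48 ± 0.07 in NT and 10.50 ± 0.16 in TS (difference 0.02, SE 0.07, limma, adjusted p = 1). On 1450014_at the values ran from 7.54 through 7.63 to 7.75 in NT and from 7.60 through 8.15 to 8.24 in TS. There 5 stripped arrays lay above every NT array and TS 5 lay among them. That probe set rose by 0.42 (SE 0.09, limma, adjusted p = 0.00426), and by 0.52 without TS 5. The unequal change of these probe sets passed a test of its own, the gap between them narrowing from 2.84 ± 0.10 to 2.44 ± 0.12 (exact permutation test, two-sided, p = 0.00216, adjusted over 54 such tests 0.00377). The third varying probe set, 1438851_x_at, differed by 0.02 (SE 0.01, limma, adjusted p = 0.591).

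Cldn4, another claudin of the granular layer, held 8.93 to 9.39 in NT (median 9.13) and 8.52 to 9.27 in TS (median 8.99). The ranges overlap, and the difference of -0.21 (SE 0.22) did not pass (limma, adjusted p = 0.718). Occludin, on the probe set of Ocln that varies, held 7.62 to 7.85 in NT (median 7.79) and 7.18 to 7.63 in TS (median 7.52). The ranges overlap narrowly, with TS 3 and TS 4 just above the lowest NT array. The difference of -0.32 (SE 0.11) missed the threshold (limma, adjusted p = 0.0768) but passed in a fit that left out the WB arrays (0.044), among varying probe sets alone (0.0257), with array weights (0.0477) and without WB 6 (0.0342).

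**Figure D2:**
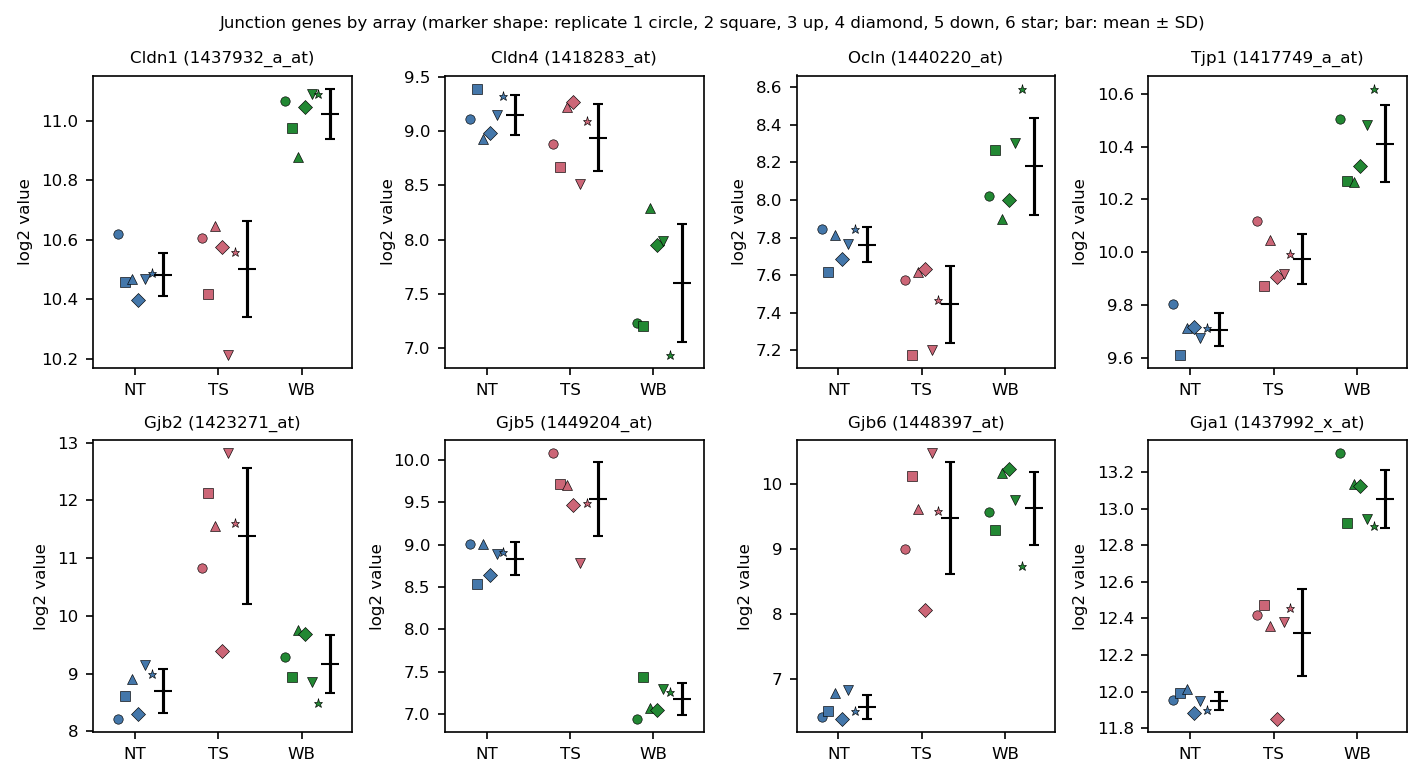
Log2 value (vertical axis, a scale of its own in each panel) of the brightest varying probe set of 8 member genes on each array, by group, with mean ± SD (n = 6). Gjb2 and Gjb6 show the widest shift from NT to TS, and Cldn4 and Gjb5 are lowest in WB.

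On single stripped arrays the members did not move as one. TS 5 was highest of the TS arrays for Gjb2 and Gjb6 and lowest for Gjb5, Cldn4 and for Cldn1 on both probe sets above (10.21 on 1437932_a_at and 7.60 on 1450014_at). TS 4 was lowest for Gjb2, Gjb6 and all 6 Gja1 probe sets and highest for Cldn4 (9.27) and Ocln (7.63). TS 5 also had the lowest suprabasal keratinocyte marker mean of the TS arrays, 11.94 against 12.37 to 12.57 on the others, and TS 4 the lowest basal keratinocyte mean, 10.76 against 11.07 to 11.26. The part of these in the members' values was not tested.

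Markers of other cells moved between NT and TS as well. The mean of 10 suprabasal keratinocyte markers was 11.01 to 11.62 in NT and 11.94 to 12.57 in TS, and 7 of the 10 rose. The mean of 10 skeletal muscle markers was 12.24 to 14.10 in NT and 10.06 to 10.96 in TS, with 9 that fell. Of 8 varying adipocyte markers 6 fell, from a mean of 11.19 to 11.82 to one of 9.79 to 10.47, and of 7 varying hair follicle markers and 8 leukocyte markers 6 each fell. Of 7 basal keratinocyte markers 3 rose and 1 fell. Their part in the junction results was not tested, and in whole skin a change in the share of a cell type cannot be told apart from a change in RNA per cell.

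WB was set against TS to see the effect of the extract on stripped skin. On WB arrays Gjb2, Gjb5 and Cldn4 fell, Gjb6 passed in neither direction, and Tjp1 and the varying Ocln probe set rose, while Cldn1 and Gja1 each rose on some probe sets and fell on another. Of the 7 brightest varying probe sets 3 rose and 3 fell, where 87.8% of varying genes passed, 48.5% higher and 39.3% lower. Over probe sets 9 rose and 5 fell of 15. Of all varying probe sets 89% passed, 47.3% higher and 41.7% lower, so the members' share called is near the background. The groups did not overlap on 12 of 15, against 77.6%. These results stand beside the actin 3' minus 5' difference of 5.69 in WB and 0.16 in TS, and its part in them was not tested. The mean of the 7 basal keratinocyte markers was 9.64 to 10.35 in WB, below the TS range of 10.76 to 11.26, while that of the suprabasal markers, 11.95 to 12.32, lay inside that of TS. Of the basal markers 5 fell, among them Krt14 (-2.88, SE 0.18, limma, adjusted p = 1.1e-09), and 2 rose, Trp63 (1.35, SE 0.12) and Itga6 (0.35, SE 0.12). Of the 10 suprabasal markers 2 rose and 3 fell. Of 10 skeletal muscle markers 8 fell, and of 8 leukocyte markers 6 fell and 2 rose. Each count takes a gene's brightest probe set. Itga6, Dsc1 and H2-Aa, called higher there, each had another varying probe set called lower. The part of these marker shifts was not tested either.

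Gjb2 ran from 8.49 through 9.11 to 9.76 in WB, and the only TS array inside this range was TS 4. Its mean fell to 9.17 ± 0.50, a difference of -2.22 (SE 0.44, 4.65-fold, limma, adjusted p = 0.000552). Against NT the WB level differed by 0.48 (SE 0.44, limma, adjusted p = 0.440). Gjb6 ran from 8.74 through 9.67 to 10.22 in WB, inside the TS range. It differed from TS by 0.15 (SE 0.35, limma, adjusted p = 0.874), and by -0.13 without TS 4, and was 3.06 (SE 0.35) above NT (adjusted p = 1.5e-06). On WB arrays both genes were lowest on WB 6 and highest on WB 3 and WB 4.

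Gjb5 ran from 6.94 through 7.17 to 7.43 in WB, below every array of the other groups, and fell from TS (-2.36, SE 0.17, limma, adjusted p = 6.5e-09) and from NT (-1.66, SE 0.17, adjusted p = 4.4e-07). Cldn4 ran from 6.94 through 7.59 to 8.29, also below all others, and fell from TS (-1.34, SE 0.22, limma, adjusted p = 7.1e-05) and from NT (-1.55, SE 0.22, adjusted p = 1.5e-05). Its WB arrays spread widely, with 3 between 6.94 and 7.23 and 3 between 7.95 and 8.29. No fold is given for either gene, whose low values lie near the WB array median of 6.90.

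Tjp1 ran from 10.27 through 10.40 to 10.62 in WB, above every TS array, and rose by 0.44 from TS (SE 0.06, limma, adjusted p = 1.7e-05). On the 1 probe set of Tjp1 the groups follow each other without overlap, NT lowest and WB highest, each step past the test. The actin 3' minus 5' difference has the same order (-0.51 in NT, 0.16 in TS, 5.69 in WB), and its part was not tested. The varying Ocln probe set ran from 7.90 through 8.14 to 8.59 in WB and rose by 0.73 from TS (SE 0.11, limma, adjusted p = 4.8e-05) and by 0.42 from NT (SE 0.11, adjusted p = 0.00594). Its order was TS, NT, WB, with TS and NT not told apart by the test.

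For Cldn1 and Gja1 the answer turned on the probe set. On Cldn1 1437932_a_at, WB arrays held 10.88 to 11.09 and were 0.52 above TS (SE 0.07, limma, adjusted p = 4.7e-06). On Cldn1 1450014_at they held 6.26 to 6.55 and were lower than TS by -1.61 (SE 0.09, limma, adjusted p = 3.1e-10). The WB values of 1450014_at lie below the array median of 6.90, so the size of its fall and of the gap below is uncertain. Both sets of WB values are clear of all other arrays, in opposite directions. The gap between these probe sets widened from 2.44 ± 0.12 to 4.57 ± 0.08 (exact permutation test, two-sided, p = 0.00216, the smallest possible, adjusted 0.00377). The third varying Cldn1 probe set rose by 0.05 (SE 0.01, limma, adjusted p = 0.00659), a call that was lost among varying probe sets alone (0.0510).

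On 5 Gja1 probe sets WB arrays were 0.39 to 0.87 above TS, led by 1415800_at with 12.50 to 12.92 in WB against 11.46 to 11.92 in TS. On 1415801_at WB arrays held 6.84 to 7.32 against 7.92 to 8.45 in TS and fell by 1.12 (SE 0.12, limma, adjusted p = 9.4e-07). Its WB values lie near the WB array median of 6.90, so the size of this fall and of its gaps to the other probe sets is uncertain. Of the 15 pairs of Gja1 probe sets 14 changed unequally between TS and WB, as did all 3 pairs of Cldn1, against 3 of 15 and 2 of 3 between NT and TS (exact permutation tests, adjusted p under 0.05 over 54). Pairs share probe sets and arrays, so they are not separate results. No share over pairs of other genes was computed. Some passing changes were small, such as -0.14 between 1437992_x_at and 1415800_at, which both rose. The single Gja1 pair that did not pass was 1438650_x_at with 1438973_x_at (adjusted exact p = 0.429).

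**Figure D3:**
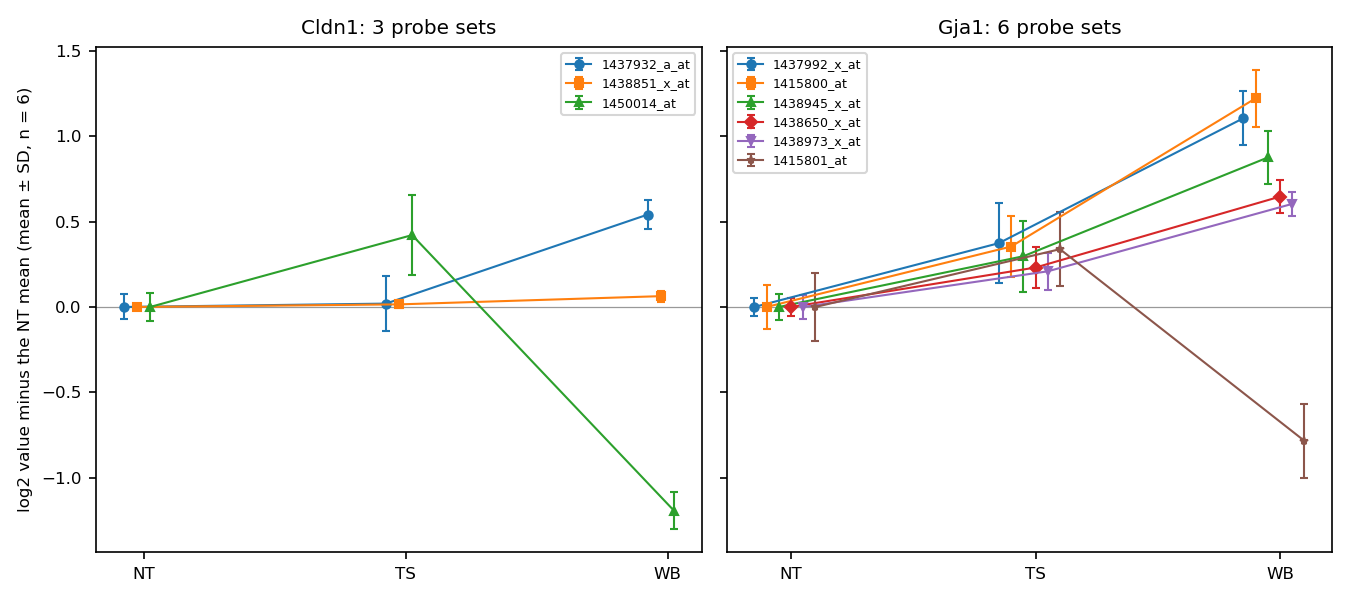
Mean ± SD (n = 6) of each varying probe set of Cldn1 (left) and Gja1 (right) after subtracting its NT mean, in log2 units, for the 3 groups along the horizontal axis. The Gja1 probe sets lie together in TS, and in WB 1415801_at of Gja1 and 1450014_at of Cldn1 stand below 0 while the others stand above.

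WB against NT, which joins stripping and extract, gave 4 rises and 2 falls among the 7 brightest varying probe sets, where 88.3% of varying genes passed, 46.9% higher and 41.3% lower. Over probe sets 10 rose and 4 fell of 15. Of all varying probe sets 89.5% passed, 45.8% higher and 43.6% lower. The groups did not overlap on 13 of 15, against 81.7%. The comparison shares its arrays with both before it. The brightest Gja1 probe set was 1.11 above NT (SE 0.10, limma, adjusted p = 5.9e-08) and Tjp1 0.70 above (SE 0.06, adjusted p = 6.0e-08). Gja1 1415801_at was lower than NT (-0.78, SE 0.12, limma, adjusted p = 4.7e-05). Cldn1 was higher on 1437932_a_at (0.54, SE 0.07) and lower on 1450014_at (-1.19, SE 0.09). Both falls end near or below the WB array median of 6.90, so their sizes are uncertain. The actin 3' minus 5' difference was 5.69 in WB and -0.51 in NT, and its part was not tested.

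Beside the members, other junction genes were taken from lists by name, also with earlier results of these data known. Of 51 further tight junction genes on the array 18 varied on their brightest probe set, and in TS against NT 4 rose and 6 fell (medians of -0.05 over the 18 and 0.002 over all varying genes, with 19.4% of varying genes higher and 21.1% lower). The polarity protein gene Crb3 rose by 0.47 (SE 0.06, limma, adjusted p = 6.8e-05). The multi-PDZ scaffold Mpdz fell by 0.66 (SE 0.05, adjusted p = 8.8e-07), the paracingulin gene Cgnl1 by 0.56 (SE 0.07, adjusted p = 6.4e-05) and Ildr2, of the angulin family found at tricellular contacts, by 0.94 (SE 0.15, adjusted p = 0.000524). The Ildr2 mean in TS, 6.97 ± 0.19, lies near the array median of 6.94, so the size of its fall is uncertain. The junctional adhesion molecules split, F11r being 0.19 (SE 0.05) higher and Jam2 0.27 lower (-0.27, SE 0.05). The other 33 tight junction genes, among them Cldn3, Cldn5, Cldn7 and Cldn8, did not vary on their brightest probe set and were not counted. One of them, Pard3, has another probe set that varies, which rose.

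Of 13 other connexin and pannexin genes only Gja4 and Panx3 varied, and neither passed in TS against NT (0.08, SE 0.04, adjusted p = 0.170, and 0.18, SE 0.18, adjusted p = 0.679, limma). Their unadjusted p-values were 0.0402 and 0.327. Of 12 adherens junction genes, whose products hold cells together through cadherins and catenins, 7 varied on their brightest probe set. Plakoglobin (Jup) rose by 0.38 (SE 0.06, limma, adjusted p = 0.00034), and the nectin Nectin3 (-0.37, SE 0.06), alpha-catenin Ctnna1 (-0.25, SE 0.06) and beta-catenin Ctnnb1 (-0.11, SE 0.03) fell. E-cadherin (Cdh1) differed by 0.08 (SE 0.06, adjusted p = 0.488). For Ctnna1 and Ctnnb1 the fall was called on 1 of 3 varying probe sets.

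In WB against TS, 17 of the 18 varying tight junction genes passed, 9 higher and 8 lower, where 48.5% and 39.3% of varying genes did. The median over the 18 was 0.01, beside 0.16 over all varying genes. Crb3 was 1.27 higher (SE 0.06, limma, adjusted p = 2.9e-11), F11r 0.70 lower (-0.70, SE 0.05, adjusted p = 8.5e-09), and Cgnl1 fell by 0.81 (SE 0.07, adjusted p = 5.0e-08). The Cgnl1 mean in WB, 7.02 ± 0.13, lies near the WB array median of 6.90, so the size of its fall is uncertain. Patj, a multi-PDZ polarity scaffold, was 0.65 higher (SE 0.06, adjusted p = 8.8e-08). Panx3 was 0.94 higher (SE 0.18) and Gja4 0.20 lower (-0.20, SE 0.04). Among adherens junction genes 5 of 7 varying were higher and none lower, the largest being Ctnnb1 (0.78, SE 0.03), Ctnna1 (0.70, SE 0.06), Nectin3 (0.51, SE 0.06) and Cdh1 (0.49, SE 0.06). In WB against NT 9 of the 18 tight junction genes were higher and 8 lower, and 4 of the 7 adherens junction genes higher and 1 lower. Of all varying genes 46.9% were higher and 41.3% lower there.

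Those counts rest on a single probe set per gene. Of 8 listed genes with several varying probe sets, 5 had probe sets called in opposite directions in WB against TS, against none in TS against NT. The share over all such genes on the array was not computed. Of all varying probe sets 89% passed in WB against TS and 38.2% in TS against NT. The count is therefore not read as particular to junction genes. Beta-catenin is an example of opposite calls, its other probe sets giving -2.02 (SE 0.09) and -2.70 (SE 0.07). The others were Ctnna1 with -0.55 (SE 0.03), Marveld1 with 1.11 (SE 0.13) and -1.25 (SE 0.08), Nectin3 with -0.26 (SE 0.10), and Ybx3 with 0.34 (SE 0.05) and -0.61 (SE 0.05).

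**Figure D4:**
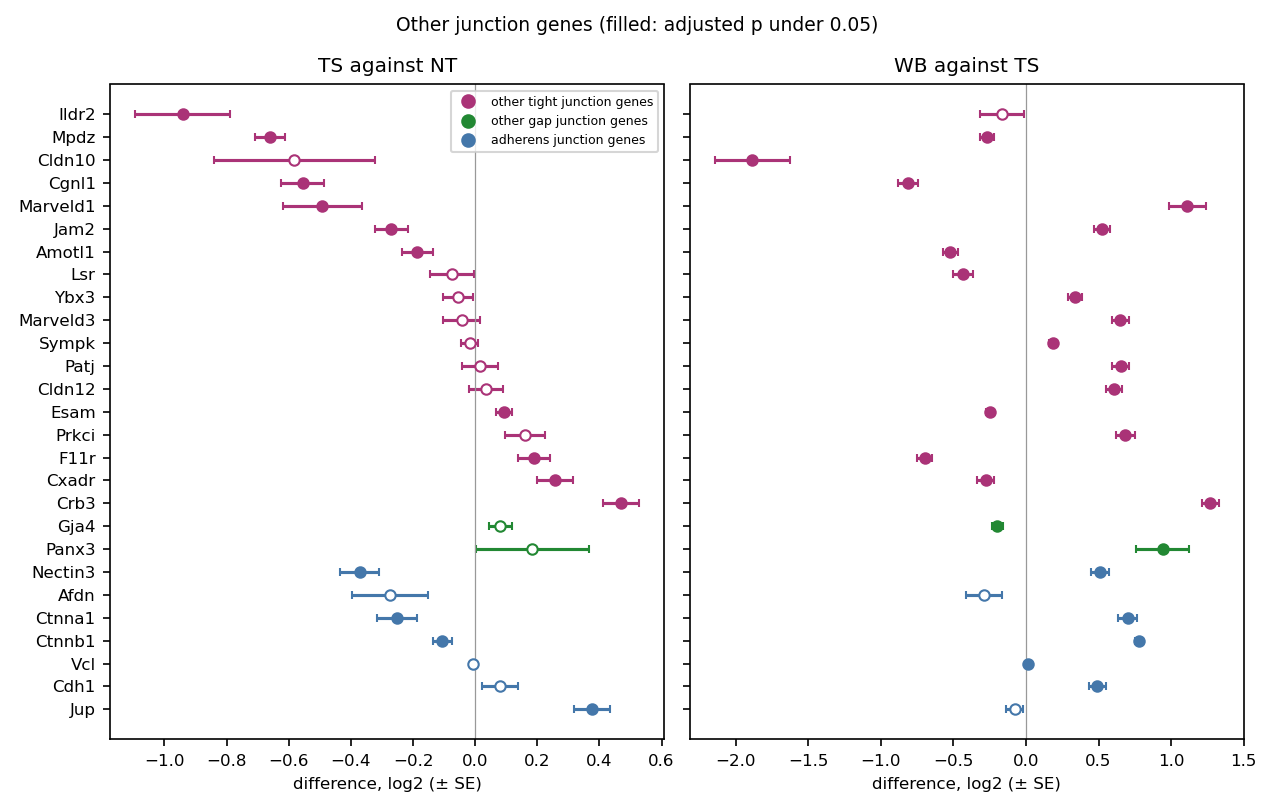
Difference in log2 units (horizontal axis, ± SE, limma) of the 27 varying genes of the tight junction, gap junction and adherens junction lists in TS against NT (left) and WB against TS (right), 1 probe set per gene, filled where adjusted p is under 0.05. The differences at the left lie within 1 log2 unit of 0, and at the right those of Cldn10, Marveld1 and Crb3 pass it.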

How the data were processed

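Values deposited by the authors, 1 for each array and probe set, were read as log2 from their range (2.93 to 19.04); the base of the logarithm, background correction and normalization are not given in the sources used here. Per the labels' protocols, 100 ng of total RNA per array was labelled for an Affymetrix mouse array. Of 45101 probe sets 64 controls were left out. Symbols come from the platform annotation, and a gene was represented by its brightest probe set. Groups were compared in limma 3.58.1 under R 4.3.3 (all 18 arrays, no covariate, two-sided, Benjamini-Hochberg over 45037 probe sets, threshold 0.05, range of at least 0.01). Likeness is the mean absolute difference of centred values over the NT and TS arrays. Members and lists were chosen with earlier results of these data known. Named beside the members were the 4 list genes with the smallest p among those called per list and comparison, a part of which is printed, and genes whose probe sets were called in opposite directions; F11r, Jam2, Cdh1, Gja4 and Panx3 in TS against NT, Cldn10 in WB against TS, Gja3, Pard3 and the unvarying claudins were named after their values were seen.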

Additional observations from a re-analysis of the deposited data

Results flagged for a closer look

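Within groups of 6 arrays, 45 combinations of varying member probe set and group were searched for an array far from the rest by Dixon's test, which flags about 1 in 20 by chance, and 5 were found. Of these, 4 are the low Gja1 values of TS 4, on probe sets that share a transcript: 11.85 on 1437992_x_at, 11.46 on 1415800_at, 10.57 on 1438945_x_at and 8.88 on 1438973_x_at. The fifth is the low Cldn1 value of TS 5, 7.60 on 1450014_at, where the nearest other TS array stood at 8.10.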

How the results depend on the processing

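Member calls were recomputed after quantile normalization and median centring, with filters, in fits of 12 arrays, with array weights, with the replicate number as a block and without each array. Of 1125 values of single probe sets 1103 kept direction and call. Filters, fits of 12 arrays, the replicate block and leaving out an array of the group not compared could change the call, not the direction. Without single arrays, 9 to 11 member probe sets passed in TS against NT and 14 in each WB comparison. Cldn1 1437932_a_at then ranged from -0.00888 to 0.0776 in TS against NT and Gjb6 from -0.13 to 0.35 in WB against TS, neither called. With the replicate block 10, 14 and 14 member probe sets passed, as without it, in TS against NT, WB against TS and WB against NT. Deviations from group means of same-numbered arrays correlated at -0.13 to 0.13 in NT and TS, -0.27 to 0.05 in TS and WB and -0.05 to 0.14 in NT and WB. This check gave no sign of pairing by number but cannot exclude it, since differently numbered arrays were not set beside these. Averaging all probe sets per gene, 2 adherens junction genes passed in TS against NT in place of 4. Their split became 4 higher and 1 lower in place of 5 and 0 in WB against TS, and 4 and 3 in place of 4 and 1 in WB against NT. The tight junction split became 7 higher and 10 lower in WB against TS and 7 and 12 in WB against NT, in place of 9 and 8 in each. With averaging, the range filter was applied to the averaged values, so the set of genes counted was not the same. After quantile normalization 1 other gap junction gene passed in WB against NT in place of 2; the cause was not tested. That scaling moved the median difference of varying genes from 0.16 to 0.28 in WB against TS and from 0.07 to 0.19 in WB against NT. It changed no member's call.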
